A study of Mus musculus with 6 samples.

Results

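The 10 genes described here are transcripts known from follicular helper T cells: Bcl6, Cxcr5, Pdcd1, Ascl2, Tox, Tox2, Btla, Sh2d1a, Slamf6 and Pou2af1. They were taken by name, each from the single probe set that carried its symbol, and 10 of 10 were measured among 19937 genes. Mouse CD4+ T cells of the B6 strain were purified as naive cells from spleen and activated in culture for 2 days with antibodies to CD3 and CD28. After an overnight rest, the cells of 4 samples were coated for 20 min with anti-CD3 and those of 2 samples with anti-CD3 plus anti-ICOS. A goat antibody against hamster immunoglobulin then cross-linked the bound antibodies for 8 h. All 6 samples thus shared the CD3 and CD28 activation and the second CD3 signal. ICOS engagement was the labelled difference. Each sample was read on 1 Affymetrix mouse gene array, so that the number of arrays limits the precision. No age or sex of the animals is given in the sources used here, and the replicates are labelled as biological.

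Follicular helper T cells are the CD4+ cells that enter B cell follicles and support germinal centres. The transcriptional repressor Bcl6 is their lineage-defining factor and is opposed by Blimp-1, the product of Prdm1. The chemokine receptor Cxcr5 guides the cells toward Cxcl13 in the follicle, and ICOS, engaged by its ligand on B cells, is a costimulatory receptor needed for their development and upkeep. PD-1 (Pdcd1) and Btla are inhibitory receptors, while the adaptor SAP (Sh2d1a) carries signals from SLAM family receptors such as Ly108 (Slamf6) during contact with B cells.

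Before the results, 1 array has to be named. Anti-CD3 replicate 4 lay apart from replicates 1 to 3 across many genes, and the labels state no batch. Among all genes, replicate 4 was above all of replicates 1 to 3 in 34.5% and below all of them in 42.5%. Of 4 arrays that did not differ, each would also be the highest or the lowest in a part of the genes. Differences are therefore given against all 4 anti-CD3 arrays, against replicates 1 to 3, and against replicate 4 alone. The last of these has 1 reference array, and replicates 1 to 3 then add only to the estimate of spread. The 3 comparisons share the same 2 anti-ICOS arrays. All levels are log2(intensity + 16) of the deposited intensities, an offset that makes differences of dim genes smaller, and differences are anti-ICOS minus the reference with limma's standard error (SE) or 95% interval.

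Against all 4 anti-CD3 arrays, 0 of the 10 genes passed the test in either direction (limma, Benjamini-Hochberg adjusted p under 0.05), where 0.271% of all genes were called higher and 0% lower. At an unadjusted p under 0.05 there were 2 members, Pdcd1 higher and Slamf6 lower, against 11.8% of all genes. By direction, 1245 of the 19937 genes were higher and 1109 lower at that p. The members' differences ran from -0.17 to 0.54 with a median of 0.14, beside a median of -0.031 over all genes. Compared with replicates 1 to 3, 5 members rose, namely Bcl6, Cxcr5, Pdcd1, Tox and Sh2d1a, where 17.1% of all genes were called higher. In that comparison 0 members were called lower, where 12.7% of all genes were. At an unadjusted p under 0.05 it had 6 members higher and 1 lower, beside 4427 and 4388 of all 19937 genes. The median was 0.23, beside -0.041 over all genes. Against replicate 4 alone 0 members passed, where 0.176% of all genes were called higher and 0% lower, and 1 member, Pdcd1, had an unadjusted p under 0.05, as had 5.1% of all genes. The members' median was then -0.058, beside -0.013 over all genes. In these bulk samples a change in the number of cells of a type and a change in RNA per cell cannot be told apart.

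**Figure D1:**
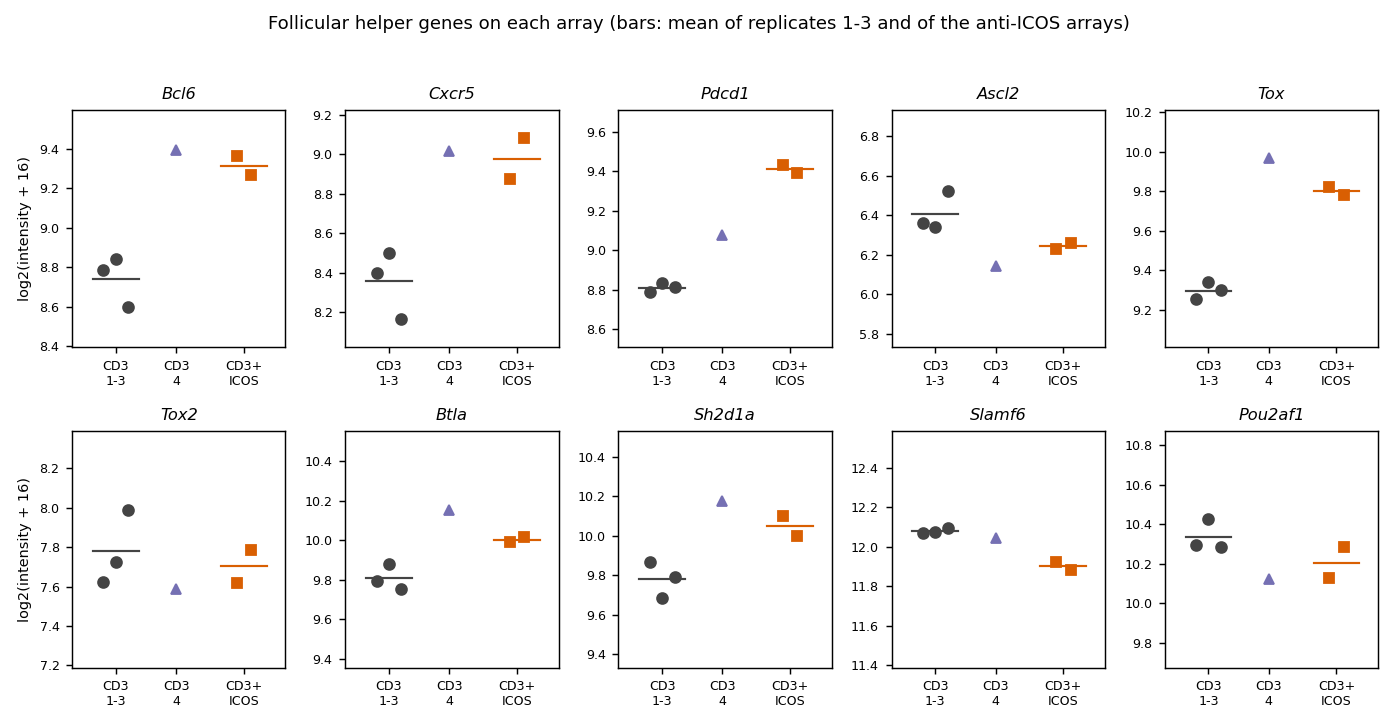
Level of each of the 10 genes, log2(intensity + 16) on the vertical axis, on anti-CD3 replicates 1 to 3 (circles), anti-CD3 replicate 4 (triangle) and the anti-CD3 plus anti-ICOS arrays (squares), with bars at the means of replicates 1 to 3 and of the anti-ICOS arrays. For Bcl6, Tox, Btla and Sh2d1a the triangle lies above both squares, for Cxcr5 between them and for Pdcd1 below them at 9.08.

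Of the transcription factor genes, Bcl6 read 8.78, 8.84 and 8.60 on anti-CD3 replicates 1 to 3, 9.39 on replicate 4, and 9.36 and 9.27 with anti-ICOS. Replicate 4 was the highest of the 6 arrays, and the groups overlapped because of it. Bcl6 differed by 0.41 ± 0.20 (SE) from all 4 anti-CD3 arrays, with an adjusted p of 0.423 by limma and a 95% interval from -0.070 to 0.89. Bcl6 rose 1.49-fold against replicates 1 to 3, by 0.57 ± 0.087 (SE, limma adjusted p = 0.00295). Against replicate 4 the difference was -0.079, with a 95% interval from -0.35 to 0.19. In linear units the deposited intensities were 371.5 to 442.6 on replicates 1 to 3, 656.7 on replicate 4, and 641.8 and 600.7 with anti-ICOS.

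Bcl6 is shown with its promoter sequence because it is the defining factor of the group and because its start regions hold matches to the core element that STAT factors bind and that resembles the Bcl6 recognition site. RefSeq (GRCm38.p6) lists 2 starts for Bcl6, and the 250 bases upstream of each are printed below, followed by those of Pdcd1, the member with the smallest p. The region of the downstream Bcl6 start is chr16:23981284-23981533 on the minus strand, that of the upstream start is chr16:23988853-23989102 on the minus strand, and that of Pdcd1 is chr1:94052554-94052803 on the minus strand. Capitals mark matches on either strand to TTCNNNGAA, the interferon-gamma activated site (GAS) core, and to GGAAA, the core bound by NFAT factors, which overlap at 1 place.
Bcl6 downstream start: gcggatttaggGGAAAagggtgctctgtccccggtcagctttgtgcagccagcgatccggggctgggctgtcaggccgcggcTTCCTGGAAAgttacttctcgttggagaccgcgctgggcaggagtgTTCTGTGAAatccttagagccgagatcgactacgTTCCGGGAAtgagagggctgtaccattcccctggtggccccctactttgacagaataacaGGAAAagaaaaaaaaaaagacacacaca
Bcl6 upstream start: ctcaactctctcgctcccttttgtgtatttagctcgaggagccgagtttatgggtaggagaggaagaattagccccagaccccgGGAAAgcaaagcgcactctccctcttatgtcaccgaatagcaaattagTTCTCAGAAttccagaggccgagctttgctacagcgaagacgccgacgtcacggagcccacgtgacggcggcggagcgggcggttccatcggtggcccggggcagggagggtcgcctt
Pdcd1 start: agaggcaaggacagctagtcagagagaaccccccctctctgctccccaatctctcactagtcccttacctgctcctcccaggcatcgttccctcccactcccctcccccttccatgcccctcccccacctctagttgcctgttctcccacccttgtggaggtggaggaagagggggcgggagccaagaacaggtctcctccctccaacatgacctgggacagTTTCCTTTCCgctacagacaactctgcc

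The downstream Bcl6 region held 3 GAS cores, whose first bases were at -168, -122 and -88 from the start, and the region of the upstream start held 1, at -118. At least 1 GAS core was found in 7.02% of 32851 upstream regions of the same length, and 3 or more in 9 of them. The Pdcd1 region held a pair of adjacent GGAAA matches on the opposite strand, at -28 and -23, a motif present in 55.6% of regions. Of the 10 members 7 had an upstream region in the table, 12 regions in all. Bcl6 alone held a GAS core, GGAAA was found for Bcl6, Pdcd1 and Tox2, and CAGCTG, an E-box of the kind bound by Ascl2, for Btla (13% of regions). No match to the octamer ATGCAAAT, to the AP-1 site TGANTCA or to the TCF core CTTTGAA was found in these windows (1.6%, 6.75% and 4.46% of regions). These matches are descriptions of letters, and no binding was measured here.

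Tox encodes a high-mobility-group box factor of T cell development that is also high in follicular helper cells. It read 9.25, 9.34 and 9.30 on anti-CD3 replicates 1 to 3, 9.97 on replicate 4, and 9.82 and 9.78 with anti-ICOS. The 3 first replicates were close together and replicate 4 was again the highest array. Tox differed by 0.34 ± 0.20 (SE) from the 4 anti-CD3 arrays (limma adjusted p = 0.441). It rose by 0.51 ± 0.063 against replicates 1 to 3 (limma adjusted p = 0.00136) and stood at -0.17 against replicate 4 (95% interval -0.37 to 0.029).

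Tox2, a factor of the same family, read 7.62, 7.72 and 7.99 on replicates 1 to 3, 7.59 on replicate 4, and 7.62 and 7.79 with anti-ICOS, so that both anti-ICOS arrays lay inside the anti-CD3 range. The difference was -0.028 ± 0.13 (SE, limma adjusted p = 0.907), with a 95% interval from -0.33 to 0.27. Its sign depended on the setting, being 0.058 without anti-CD3 replicate 3 and 0.12 against replicate 4. The difference between Tox and Tox2 was not tested. Of the other relatives, Tox3 differed by -0.024 and Tox4 by 0.17 (limma adjusted p = 0.919 and 0.436). Against replicates 1 to 3 the values were -0.099 for Tox3 and 0.15 for Tox4 (limma adjusted p = 0.403 and 0.243), and against replicate 4 they were 0.20 and 0.23.

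Ascl2, a basic helix-loop-helix factor that can start Cxcr5 expression, was among the 40% of genes with the lowest mean. It read 6.36, 6.34 and 6.52 on anti-CD3 replicates 1 to 3, 6.14 on replicate 4, and 6.23 and 6.26 with anti-ICOS. Replicate 4 was the lowest array. The difference was -0.098 ± 0.11 (SE, limma adjusted p = 0.614), and it was -0.16 against replicates 1 to 3 (limma adjusted p = 0.132) and 0.10 against replicate 4.

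Pou2af1 encodes the octamer coactivator OCA-B, best known from B cells and also present in follicular helper cells. It read 10.29, 10.42 and 10.29 on replicates 1 to 3, 10.12 on replicate 4, and 10.13 and 10.28 with anti-ICOS. Replicate 4 was the lowest of the 6 arrays and the groups overlapped. The difference was -0.075 ± 0.10 (SE, limma adjusted p = 0.676), and it was -0.13 against replicates 1 to 3 (limma adjusted p = 0.233), 0.085 against replicate 4 and 0.0015 without anti-ICOS replicate 1. Pou2f2, which encodes one of the octamer-binding partners of OCA-B, read 9.09 to 9.16 on replicates 1 to 3, 9.64 on replicate 4, and 9.53 and 9.63 with anti-ICOS. Its difference was 0.33 against all 4 anti-CD3 arrays (limma adjusted p = 0.423) and 0.46 against replicates 1 to 3, which passed the test (limma adjusted p = 0.00229). Against replicate 4 the Pou2f2 value was -0.060.

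Among the surface receptors, Cxcr5 read 8.40, 8.50 and 8.17 on anti-CD3 replicates 1 to 3, 9.02 on replicate 4, and 8.87 and 9.08 with anti-ICOS. Replicate 4 lay between the anti-ICOS arrays. Cxcr5 differed by 0.46 ± 0.22 (SE) from the 4 anti-CD3 arrays (limma adjusted p = 0.423, 95% interval -0.054 to 0.97). It rose 1.54-fold against replicates 1 to 3, by 0.62 ± 0.11 (SE, limma adjusted p = 0.00592), and against replicate 4 the difference was -0.037. Cxcl13, the gene of its ligand, was dim on these arrays, at 5.41 to 6.01 with anti-CD3 and 5.39 and 5.52 with anti-ICOS, and differed by -0.30 (limma adjusted p = 0.432). Its difference was -0.41 against replicates 1 to 3 (limma adjusted p = 0.0224) and 0.042 against replicate 4.

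Pdcd1 encodes PD-1, whose engagement dampens T cell receptor signals. It read 8.79, 8.83 and 8.81 on anti-CD3 replicates 1 to 3, 9.08 on replicate 4, and 9.43 and 9.39 with anti-ICOS. On both anti-ICOS arrays Pdcd1 exceeded every anti-CD3 array, an order that 8.51% of all genes held and 1 member, Pdcd1. The group means were 8.88 ± 0.13 (SD, n = 4) and 9.41 ± 0.027 (SD, n = 2), a difference of 0.54 ± 0.098 (SE) or 1.45-fold. The 95% interval ran from 0.30 to 0.77, and the adjusted p over all genes was 0.144 by limma. Against replicates 1 to 3 the rise was 0.60 ± 0.061 (limma adjusted p = 0.00055), and against replicate 4 the difference was 0.34 (limma adjusted p = 0.397, 95% interval 0.15 to 0.53). Over the 17 alternatives its difference stayed positive, between 0.34 and 0.61.

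The genes of the 2 PD-1 ligands lie beside it in the pathway. Pdcd1lg2 (PD-L2) read 6.56, 6.41 and 6.75 on anti-CD3 replicates 1 to 3, 7.13 on replicate 4, and 8.30 and 8.00 with anti-ICOS. The difference was 1.44 ± 0.20 (SE) or 2.71-fold, with an adjusted p of 0.0542 by limma. It passed in 7 of 17 alternatives, among them the fit against replicates 1 to 3 (1.58, limma adjusted p = 0.000172), and the adjusted p ran from 3.64e-05 to 0.478 over all 17. The value against replicate 4 was 1.02 (limma adjusted p = 0.105). Cd274 (PD-L1) read 8.97, 8.94 and 8.61, then 9.47 on replicate 4, and 10.35 and 10.25 with anti-ICOS, a difference of 1.30 ± 0.21 (SE, limma adjusted p = 0.10). Cd274 rose by 1.46 against replicates 1 to 3 (limma adjusted p = 0.000178), and the value against replicate 4 was 0.83 (limma adjusted p = 0.154). For both ligands the 2 anti-ICOS arrays were above all 4 anti-CD3 arrays. Macrophages and dendritic cells also express both ligands. Of 12 markers of myeloid and dendritic cells, 1 rose against all 4 anti-CD3 arrays, Flt3 at 1.26 ± 0.087 (SE, limma adjusted p = 0.00321), beside 0.271% of all genes. At an unadjusted p under 0.05, 10 were higher and 0 lower, beside 1245 and 1109 of all 19937 genes. On both anti-ICOS arrays 8 markers were above all 4 anti-CD3 arrays, as were 8.51% of all genes. The median over the 12 markers was 0.62. Of these markers 10 rose against replicates 1 to 3, where 17.1% of all genes were called higher. From replicate 4 alone the 12 markers differed by -0.098 to 1.16, with a median of 0.40. Flt3 (1.16), Cst3 (0.89) and Tyrobp (0.78) differed most, while Fcgr3 (-0.098) and Adgre1 (-0.068) were negative. Their summed intensity was 2910.6 to 3552.6 with anti-CD3 and 5499.6 and 6107.4 with anti-ICOS, and no marker was at 0. The part of such cells in the values of the ligand genes was not tested.

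Btla, an inhibitory receptor that binds the herpesvirus entry mediator, read 9.79, 9.88 and 9.75 on replicates 1 to 3, 10.16 on replicate 4, and 9.99 and 10.01 with anti-ICOS. Replicate 4 was the highest array. The difference was 0.11 ± 0.12 (SE, limma adjusted p = 0.616), 0.20 ± 0.067 against replicates 1 to 3 (limma adjusted p = 0.0606) and -0.15 against replicate 4. Tnfrsf14, the gene of that ligand, read 10.40 to 10.66 with anti-CD3 and 10.35 and 10.37 with anti-ICOS, a difference of -0.19 (limma adjusted p = 0.423), and it was -0.25 against replicates 1 to 3 (limma adjusted p = 0.0299) and -0.037 against replicate 4.

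Sh2d1a and Slamf6, the adaptor and a receptor that uses it, had differences of opposite sign against all 4 anti-CD3 arrays and against replicates 1 to 3. Against replicate 4 both were negative, and the difference between these genes was not tested. Sh2d1a read 9.87, 9.68 and 9.79 on anti-CD3 replicates 1 to 3, 10.18 on replicate 4, and 10.10 and 9.998 with anti-ICOS. Both anti-ICOS arrays were above replicates 1 to 3 and below replicate 4. The difference was 0.17 ± 0.14 (SE, limma adjusted p = 0.516), and against replicates 1 to 3 it rose by 0.27 ± 0.077 (SE, limma adjusted p = 0.0354). Against replicate 4 the value was -0.13.

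Slamf6 was the member with the least spread among the anti-CD3 arrays. It read 12.07, 12.08, 12.09 and 12.04 on replicates 1 to 4, and 11.92 and 11.88 with anti-ICOS. Replicate 4 was slightly below replicates 1 to 3, and both anti-ICOS arrays were below all 4 anti-CD3 arrays, as were those of 14.7% of all genes. The difference was -0.17 ± 0.064 (SE), or 0.889-fold, with an adjusted p of 0.417 by limma and a 95% interval from -0.32 to -0.017. It was -0.18 against replicates 1 to 3 (limma adjusted p = 0.0599) and -0.14 against replicate 4, and it was negative under all 17 alternatives. With array quality weights it passed the test (limma adjusted p = 0.0124), a fit that called 24.4% of all genes lower. Fyn, the kinase that SAP recruits, differed by 0.12 (limma adjusted p = 0.551), by 0.20 from replicates 1 to 3 (limma adjusted p = 0.0553) and by -0.11 from replicate 4.

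**Figure D2:**
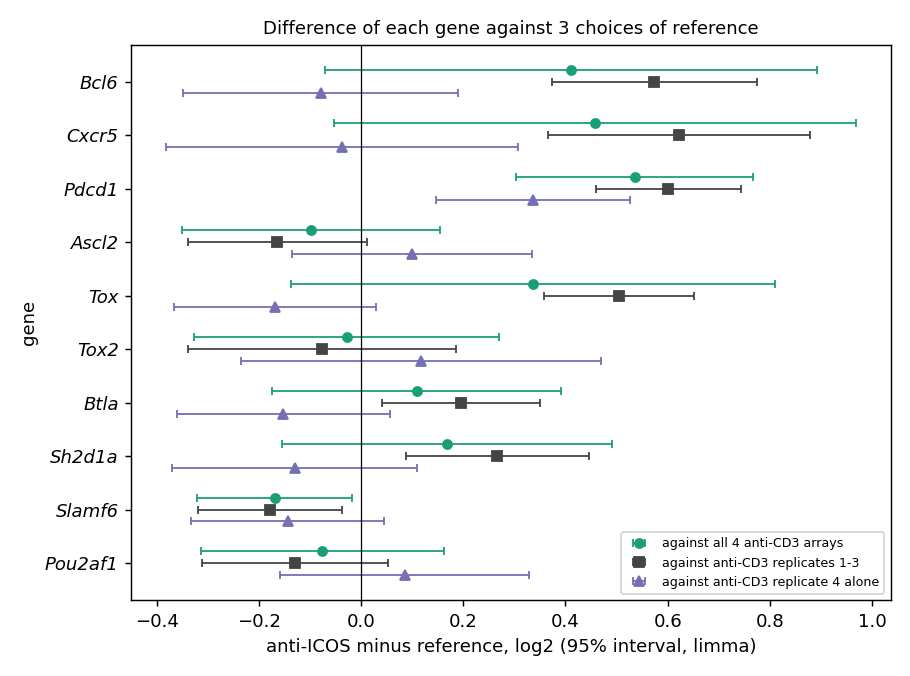
Difference of each of the 10 genes (vertical axis), anti-ICOS minus the reference on the log2 scale (horizontal axis) with limma's 95% interval, against all 4 anti-CD3 arrays (circles), replicates 1 to 3 (squares) and replicate 4 alone (triangles). The interval of Pdcd1 lies above 0 for each reference, while Bcl6, Cxcr5, Tox, Btla and Sh2d1a are positive against replicates 1 to 3 and negative against replicate 4. Against replicate 4 the intervals of these last genes all include 0.

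The order of the arrays can be set out over the members. In 6 members both anti-ICOS arrays were above replicates 1 to 3, an order held by 28.5% of all genes, and in 3 members (Ascl2, Slamf6 and Pou2af1) they were below, as in 35.1% of all genes. Replicate 4 joined the anti-ICOS arrays above replicates 1 to 3 in these 6 members (25.9% of all genes) and below them in these 3 (30.4% of all genes). Both positions are taken from the same 3 arrays, so that spread in those arrays alone also moves both the same way. Among the 6, replicate 4 was above both anti-ICOS arrays in 4 members, between them in 1 and below both in 1. Of all genes with both anti-ICOS arrays above replicates 1 to 3, replicate 4 was above both in 49.2%, between in 21% and below in 29.8%. Replicate 4 was above replicates 1 to 3 in 6 members and below them in 4, and the median shift of replicate 4 from the mean of replicates 1 to 3 was 0.31. For Bcl6, Cxcr5 and Tox that shift was 0.65, 0.66 and 0.67, against 0.57, 0.62 and 0.51 for the anti-ICOS arrays. For Pdcd1 it was 0.26 against 0.60.

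**Figure D3:**
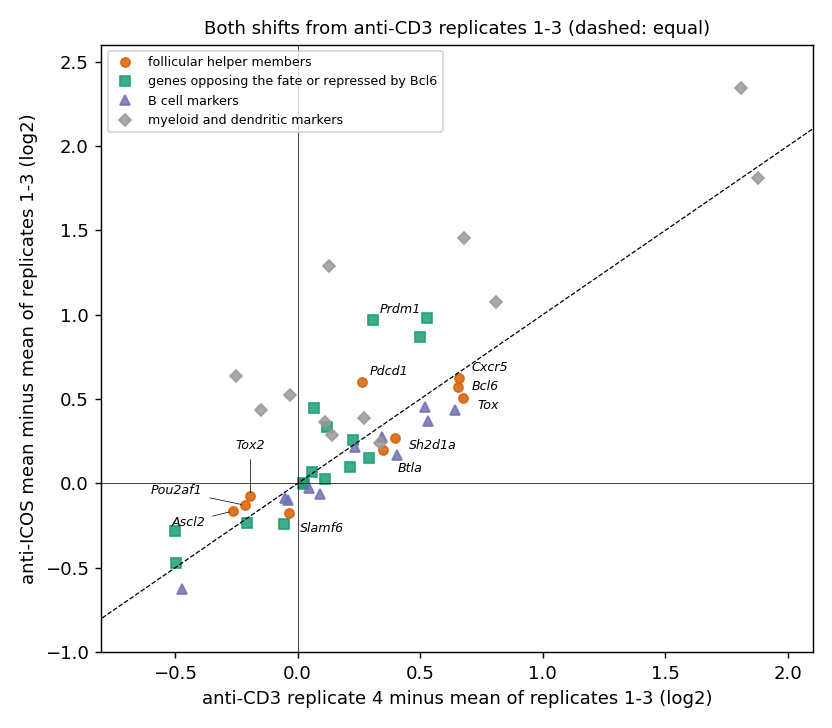
Shift of anti-CD3 replicate 4 (horizontal axis) and of the anti-ICOS mean (vertical axis) from the mean of anti-CD3 replicates 1 to 3, both in log2 units, for the follicular helper members, genes that oppose them, B cell markers and myeloid or dendritic cell markers, with equal shifts on the dashed line. Bcl6, Cxcr5 and Tox lie below the line, and Pdcd1 (0.26 and 0.60) and Prdm1 (0.31 and 0.97) lie above it. Both axes use the same 3 reference arrays, whose spread moves both shifts together.

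Of 16 measured genes that oppose the follicular fate, or that Bcl6 represses, 0 passed against all 4 anti-CD3 arrays, with a median of 0.050. At an unadjusted p under 0.05, 5 were higher and 1 lower, beside 1245 and 1109 of all 19937 genes. Against replicates 1 to 3, 6 rose and 4 fell, where 29.7% of all genes were called in either direction. Those that fell were Il2rb (-0.47), Ccr7 (-0.28), Klf2 (-0.24) and Il7r (-0.23). Against replicate 4 these genes stood at 0.024, 0.21, -0.18 and -0.027. Prdm1, the antagonist of Bcl6, read 7.42, 7.42 and 7.31 on replicates 1 to 3, 7.69 on replicate 4, and 8.49 and 8.20 with anti-ICOS. Both anti-ICOS arrays were above all 4 anti-CD3 arrays. Prdm1 differed by 0.89 ± 0.13 (SE) or 1.85-fold, with an adjusted p of 0.0671 by limma. It passed in 5 of 17 alternatives, and the adjusted p ran from 0.000185 to 0.547 over all 17. The value was 0.97 against replicates 1 to 3 (limma adjusted p = 0.000464) and 0.66 against replicate 4 (limma adjusted p = 0.183, 95% interval 0.37 to 0.95). Bcl6, in the same 3 comparisons, stood at 0.41, 0.57 and -0.079, and the difference between the 2 genes was not tested.

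Socs1, a feedback inhibitor of cytokine signalling, and Stat5a, a transducer of interleukin-2 signals that limit the follicular fate, followed Prdm1 in order of p. Socs1 read 8.56, 8.67 and 8.57 on replicates 1 to 3, 9.13 on replicate 4, and 9.67 and 9.49 with anti-ICOS, a difference of 0.85 ± 0.17 (SE, limma adjusted p = 0.185). Stat5a read 9.92, 9.92, 9.88 and 9.97 on replicates 1 to 4, and 10.47 and 10.23 with anti-ICOS, a difference of 0.43 ± 0.086 (SE, limma adjusted p = 0.189). In both genes the anti-ICOS arrays were above all 4 anti-CD3 arrays. Both rose against replicates 1 to 3, by 0.98 and 0.45 (limma adjusted p = 0.000209 and 0.00682). From replicate 4 alone Socs1 and Stat5a differed by 0.45 and 0.38 (limma adjusted p = 0.354 and 0.581).

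A list of transcription factors linked to the fate had 9 measured genes: Maf, Irf4, Nfatc1, Stat3, Pou2f2, Lef1, Batf, Id3 and Nfatc2. Of these, 0 passed against all 4 anti-CD3 arrays, and the median was 0.23. At an unadjusted p under 0.05, 2 were higher and 0 lower, beside 1245 and 1109 of all 19937 genes. Without replicate 4, 5 rose and 0 fell, beside 17.1% and 12.7% of all genes. At an unadjusted p under 0.05 that fit had 7 higher and 0 lower, beside 4427 and 4388 of all 19937 genes. Maf, which supports Il21 and Il4 expression, read 7.93, 7.90 and 7.88 on replicates 1 to 3, 8.78 on replicate 4, and 9.32 and 9.10 with anti-ICOS, above all 4 anti-CD3 arrays. It differed by 1.08 ± 0.26 (SE) or 2.12-fold from the 4 anti-CD3 arrays (limma adjusted p = 0.310), and it rose by 1.30 against replicates 1 to 3 (limma adjusted p = 7.87e-05). Against replicate 4 the Maf difference was 0.43 with a 95% interval from 0.18 to 0.67 (limma adjusted p = 0.414). Irf4, a factor induced by T cell receptor signals, read 9.18 to 9.40 with anti-CD3 and 9.57 and 9.59 with anti-ICOS, a difference of 0.29 ± 0.084 (SE, limma adjusted p = 0.414). For Irf4 the values were 0.27 against replicates 1 to 3, which passed (limma adjusted p = 0.0396), and 0.33 against replicate 4. Nfatc1, a calcium-regulated factor, read 10.24, 10.27 and 10.24 on replicates 1 to 3, 10.70 on replicate 4, and 10.61 and 10.72 with anti-ICOS. Its difference was 0.30 ± 0.14 (SE, limma adjusted p = 0.423), 0.42 against replicates 1 to 3, which passed (limma adjusted p = 0.00343), and -0.031 against replicate 4.

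Of 16 measured surface and secreted products of follicular helper cells, 0 passed against all 4 anti-CD3 arrays, and the median was 0.19. At an unadjusted p under 0.05, 2 were higher and 0 lower, beside 1245 and 1109 of all 19937 genes. When replicate 4 was left out, 9 rose and 0 fell, beside 17.1% and 12.7% of all genes. At an unadjusted p under 0.05 that fit had 9 higher and 0 lower, beside 4427 and 4388 of all 19937 genes. Icos itself read 10.63, 10.62 and 10.49 on replicates 1 to 3, 10.88 on replicate 4, and 11.07 and 10.998 with anti-ICOS, above all 4 anti-CD3 arrays. Its difference was 0.38 ± 0.11 (SE, limma adjusted p = 0.414), 0.45 against replicates 1 to 3, which passed (limma adjusted p = 0.00361), and 0.16 against replicate 4. P2rx7, an ATP-gated channel, differed by 0.66 ± 0.21 (SE, limma adjusted p = 0.414), and its anti-ICOS arrays were 8.96 and 8.42, with replicate 4 at 8.44. P2rx7 rose by 0.79 against replicates 1 to 3 (limma adjusted p = 0.00701) and stood at 0.25 against replicate 4. Il6st, the shared signal-transducing chain of the interleukin-6 receptor, read 10.38 to 10.47 on replicates 1 to 3, 10.84 on replicate 4, and 10.82 and 10.84 with anti-ICOS. Its difference was 0.31 ± 0.14 (SE, limma adjusted p = 0.423), 0.41 against replicates 1 to 3, which passed (limma adjusted p = 0.00319), and -0.015 against replicate 4. Il21, the cytokine by which these cells help B cells, was among the 40% of genes with the lowest mean, where the offset makes differences smaller. It read 5.16 to 5.18 with anti-CD3 and 5.27 and 5.19 with anti-ICOS. The difference of Il21 was 0.063, with a 95% interval from -0.093 to 0.22 (limma adjusted p = 0.602). It was 0.061 against replicates 1 to 3 (limma adjusted p = 0.476) and 0.068 against replicate 4.

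The list of binding partners and relatives held 14 measured genes, of which 0 passed against all 4 anti-CD3 arrays. At an unadjusted p under 0.05, 3 were higher and 0 lower, beside 1245 and 1109 of all 19937 genes. Against replicates 1 to 3, 6 rose and 2 fell, beside 17.1% and 12.7% of all genes. Besides the genes above, Slamf7, a SLAM family receptor, read 9.63 to 9.82 on replicates 1 to 3, 9.997 on replicate 4, and 10.16 and 10.11 with anti-ICOS. Slamf7 differed by 0.34 ± 0.11 (SE, limma adjusted p = 0.414), rose by 0.40 against replicates 1 to 3 (limma adjusted p = 0.00786) and stood at 0.14 against replicate 4.

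**Figure D4:**
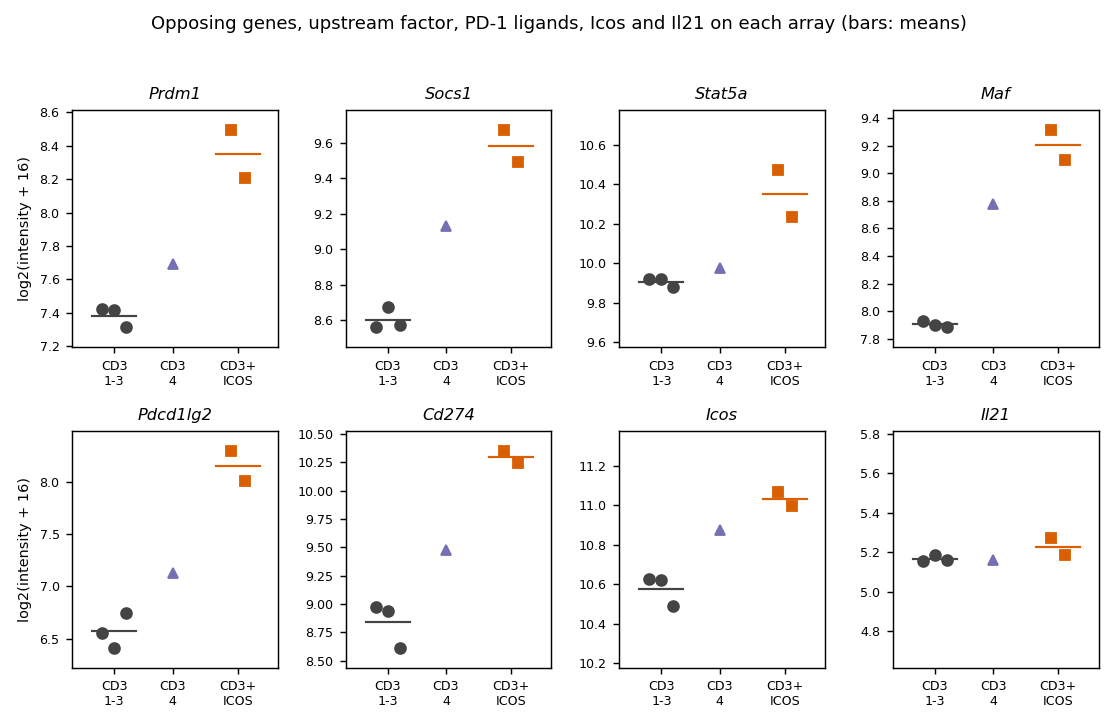
Levels, log2(intensity + 16), of Prdm1, Socs1, Stat5a, Maf, Pdcd1lg2, Cd274, Icos and Il21 on anti-CD3 replicates 1 to 3 (circles), anti-CD3 replicate 4 (triangles) and the anti-ICOS arrays (squares), with bars at the means of replicates 1 to 3 and of the anti-ICOS arrays. In these 8 genes both squares lie above the triangle, for Prdm1 at 8.49 and 8.20 against 7.69.

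The labelled cell type was checked against its markers. The 9 measured markers of CD4 T cells had intensities of at least 1201.8 on every array, with 0 called against all 4 anti-CD3 arrays (0 higher and 2 lower at an unadjusted p under 0.05). At that p, 1245 of all 19937 genes were higher and 1109 lower. Compared with replicates 1 to 3, 1 was higher and 3 were lower, beside 17.1% and 12.7% of all genes. Their summed intensity was 31392.3 to 33554 on replicates 1 to 3, 30648.2 on replicate 4, and 28752 and 29592.4 with anti-ICOS. On both anti-ICOS arrays 4 of the 9 were below all 4 anti-CD3 arrays, as were 14.7% of all genes. The part of this in the members' values was not tested. B cell markers were also present, and Bcl6, Cxcr5, Btla and Pou2af1 are among the members that B cells express. The 11 measured B cell markers summed to 21201.6 to 23649.5 on replicates 1 to 3, 25043.6 on replicate 4, and 22605.7 and 25017.7 with anti-ICOS, and no marker was below 189.8 on any array. Of these, 0 passed against all 4 anti-CD3 arrays (0 higher and 1 lower at an unadjusted p under 0.05). Against replicates 1 to 3 the B cell genes Blk, Ms4a1, Pax5 and Ebf1 rose and Fcer2a fell, beside 17.1% and 12.7% of all genes called higher and lower. Pax5, the factor that maintains B cell identity, read 9.73, 9.83 and 9.73 on replicates 1 to 3, 10.29 on replicate 4, and 10.03 and 10.23 with anti-ICOS, so that replicate 4 was the highest array. The part of B cells in the values of Bcl6, Cxcr5, Btla, Pou2af1 and the other members was not tested.

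Regulatory T cells of the follicle share Bcl6, Cxcr5 and Pdcd1 with helper cells. Of 7 measured regulatory T cell markers 0 passed against all 4 anti-CD3 arrays (3 higher and 1 lower at an unadjusted p under 0.05). At that p, 1245 of all 19937 genes were higher and 1109 lower. Compared with replicates 1 to 3, 5 rose and 1 fell, beside 17.1% and 12.7% of all genes called higher and lower. Foxp3, which defines these cells, read 9.08, 8.89 and 9.13 on replicates 1 to 3, 10.04 on replicate 4, and 10.02 and 10.15 with anti-ICOS. Ctla4 was the marker that fell. It differed by -0.30 from all 4 anti-CD3 arrays (limma adjusted p = 0.414) and by -0.37 from replicates 1 to 3 (limma adjusted p = 0.00547). Against replicate 4 the Ctla4 value was -0.10. The summed intensity of the 7 markers was 7402.9 to 7777.2 on replicates 1 to 3, 8682.7 on replicate 4, and 8753.7 and 8666.1 with anti-ICOS. Il2ra and Ctla4, the brightest of them, weighed most in this sum. The 7 NK and NKT cell markers summed to 5972.2 to 6251.5 on replicates 1 to 3, 7688.7 on replicate 4, and 7639.9 and 7708.4 with anti-ICOS, and the 2 CD8 markers to 3858.8 to 4128.3, 4704.2, and 4352 and 4509.1. In the NK and NKT sum Nkg7 and Klrd1 weighed most, with means of 11.88 and 11.09 over the 4 anti-CD3 arrays. Ncr1, Klrb1c and Klra8 were among the 40% of genes with the lowest mean. Of the NK and NKT markers 0 passed against all 4 anti-CD3 arrays (3 higher and 0 lower at an unadjusted p under 0.05). Compared with replicates 1 to 3, 5 rose and 0 fell, beside 17.1% and 12.7% of all genes. At an unadjusted p under 0.05 that fit had 6 higher and 0 lower, beside 4427 and 4388 of all 19937 genes. Of the CD8 markers 0 passed in either comparison (against all 4 anti-CD3 arrays 0, and against replicates 1 to 3 1 higher and 0 lower, at an unadjusted p under 0.05). The part of these cells in the members' values was not tested.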

How the data were processed

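Total RNA from 6 samples (1 ug each, per the labels' protocols) was put on Affymetrix mouse gene arrays of 1 colour after biotin labelling. Groups come from the sample titles, 4 arrays with anti-CD3 alone and 2 with anti-ICOS added. The deposited values are normalized intensities on a linear scale (7.23 to 22176, array medians 109 to 114). MAS5 is named per the submitters' processing notes, while how arrays were normalized is not given in the sources used here. If arrays were set to equal levels, a shift shared by most genes would not be seen.

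Probe sets with 1 gene symbol (21640 of 34760) were used and the brightest was kept per gene, which gave 19937 genes. Values were taken as log2(intensity + 16) with no filter and fitted by the moderated linear model of limma 3.58.1 (R 4.3.3), with 4 residual degrees of freedom. Adjusted p-values are two-sided, Benjamini-Hochberg over all genes, with a threshold of 0.05. The labels call the replicates biological but name no separate animals or cultures, so p-values cover only the spread between arrays. The fit was tested on simulated data with independent noise between arrays and changes larger than those of the members. No simulated array was set apart as replicate 4 is, so that test does not bear on its effect. Members and lists were chosen with earlier results of these data known, and 103 of 114 entries of the other lists were measured. Named genes are the members, the 3 of smallest p in each pathway list, and the members' partners together with Prdm1, Icos and Il21. Marker genes in the text, among them Flt3, Pax5, Foxp3 and Ctla4, and the opposing genes that fell were named after their values were seen. Upstream sequences are from RefSeq (GRCm38.p6). Figures used matplotlib 3.10.9 (Python 3.11.15). The alternatives were quantile normalization, median centring, offsets of 1 and 64, a filter on the dimmest 40%, the mean of probe sets, every probe set, a trended and robust prior, array weights, a replicate block, each array left out, and anti-CD3 replicate 4 as the only reference.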

Additional observations from a re-analysis of the deposited data

Results flagged for a closer look

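Within the anti-CD3 group, 6 of the 29 named genes had 1 array far from the other 3, with a gap above Dixon's limit of 0.83 of the group's range. In 5 of them the array was anti-CD3 replicate 4, which read 9.08 for Pdcd1, 9.97 for Tox, 8.78 for Maf, 10.70 for Nfatc1 and 9.64 for Pou2f2. In each of these 5 genes it was the highest array of its group. For Il21 anti-CD3 replicate 2 stood apart at 5.18, a gap of under 0.1 log2 units to the others. Chance gives such a gap in about 5% of groups. Over all 19937 genes it was found in 8.69%, and in 1197 of those 1732 genes the array was replicate 4. Bcl6 and Cxcr5, also highest on replicate 4 within the anti-CD3 group, stayed below this limit.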

How the results depend on the processing

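The number of members past the threshold, 0 higher and 0 lower with all 6 arrays, was 5 higher and 0 lower without anti-CD3 replicate 4 (17.1% and 12.7% of all genes) and 6 higher and 1 lower with array quality weights, which called 22.8% and 24.4% of all genes higher and lower (weights of 0.15 for replicate 4 against 4.53 for replicate 1). With each array left out in turn the count of higher members ran from 0 to 5, that of lower members was 0, and the members' median ran from 0.0995 to 0.23. With the replicate block it was 5 higher, Bcl6, Cxcr5, Pdcd1, Tox and Sh2d1a, beside 17% of all genes. That block rests on replicates 1 and 2, the only numbers both groups share. The numbers only name biological replicates and were not taken as pairs. The deviations of same-numbered arrays correlated at -0.0389 and 0.101. With 2 anti-ICOS arrays the deviations of 1 mirror those of the other, so these values cannot show or exclude pairing. With replicate 4 as the only reference the median turned from 0.14 to -0.058. The other settings left both counts at 0, with medians from 0.067 (quantile normalization) to 0.17 (filter on dim genes).

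Differences changed sign most often against replicate 4 alone. They were then -0.079 for Bcl6, -0.037 for Cxcr5, -0.17 for Tox, -0.15 for Btla, -0.13 for Sh2d1a, 0.0997 for Ascl2, 0.12 for Tox2, 0.085 for Pou2af1, -0.031 for Nfatc1, -0.015 for Il6st, 0.042 for Cxcl13, 0.20 for Tox3, -0.060 for Pou2f2 and -0.11 for Fyn. Tox2 was 0.040 with array weights, 0.029 with the replicate block, 0.058 without anti-CD3 replicate 3 and 0.055 without anti-ICOS replicate 1. In the last setting Pou2af1 was 0.0015 and Tox3 0.097, and Tox3 was 0.0050 and 0.020 without anti-CD3 replicates 2 and 3. The cause of these changes was not tested. Pdcd1 and Slamf6 kept their direction under all 17 alternatives. Ascl2, Cxcl13, Tox3 and Il21 were removed by the filter on dim genes. The 2 anti-ICOS arrays limit the precision of every difference.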
